A study of Mus musculus with 16 samples.

Results

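Chemokines, the small secreted proteins that steer migrating cells, and their receptors were followed through 4 groups of mouse ovaries. Members were taken by gene name from a list of 29 ligand genes and 15 receptor genes, 44 of the 55426 genes in the deposited table. The list was drawn up with earlier results of these data known. The 15 receptors comprised 11 that signal through G proteins and 4 atypical ones. Of the 44 members, 40 held enough reads to be tested, among 18833 tested genes in all.

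Chemokines are grouped as CC, CXC, CX3C and XC ligands by the spacing of the cysteines near their start. Each binds receptors on the surface of leukocytes and some other cells, and cells move towards the higher concentration of the ligand. Atypical receptors bind chemokines without the usual signal and remove, store or transport them. In the ovary, chemokines are known as attractants of the macrophages, neutrophils and lymphocytes that come and go with ovulation and with the breakdown of corpora lutea.

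The ovaries came from female C57BL/6NHsd mice, an inbred strain, with 1 ovary from each mouse as 1 library and 4 mice in each of 4 groups, and were taken in diestrus. On T mice were injected under the skin once a week with testosterone enanthate, an ester that releases the hormone slowly, at 0.9 mg in sesame oil over 6 weeks, and their ovaries were collected at 16 weeks of age. Post T mice received the same 6 weeks of injections, which were then stopped, and their ovaries were collected 4 estrous cycles after cycling had resumed, at 24 to 28 weeks of age. Controls for On T were 16 weeks old and controls for Post T were 24 to 28 weeks old, and both received sesame oil alone. No allele, transgene or deletion is named for any group.

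The 16 libraries held 26598055 to 52659637 counts, so that 3 counts, taken here as the floor, stood for 0.0571 to 0.117 CPM (counts per 1000000 counts of the library). CPM was scaled between libraries by TMM, and TPM, which is also corrected for gene length, was used where genes are compared with each other. Of 10 ovary markers such as Foxl2 and Gdf9, all 10 were tested and their summed level was 2721 to 12210 CPM. The lowest sum was that of On T library 2 and the highest that of Post T control library 1, and counts of called members are also given without both. The RNA was that of whole ovaries, so fewer cells of a type and less RNA per cell cannot be told apart.

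By the mean TPM of all 16 libraries, the highest members were 3 ligands, Ccl21a at 278, Cxcl14 at 129 and Cxcl12 at 60.5. Ccl21c, a copy of Ccl21a that is not a member, was at 206 TPM, and the level of Ccl21a may depend on how reads were divided between them. Ccl21a is made by lymphatic vessels and draws dendritic cells and T cells through Ccr7. Cxcl14 is a constitutive chemokine of epithelia and stroma, and Cxcl12 retains cells that carry Cxcr4. Ccl6, a mouse CC ligand of myeloid cells, followed at 34.6 TPM and Cxcl16 at 21.6 TPM. Ccl6 took this place through the Post T libraries, where its mean of 83.8 TPM was above that of Cxcl12 at 49.4 TPM, while in the controls for On T and on testosterone its means of 13.8 and 13.2 TPM were below those of Cxcl16 at 14.1 and 16.4 TPM. The highest receptors were Cxcr4 at 11.5 TPM and the atypical receptor Ackr3 at 9.44 TPM, which both bind Cxcl12. Their order turned by group, since Ackr3 was the higher in the controls for On T (9.68 against 7.78 TPM) and on testosterone (10.8 against 7.88 TPM).

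**Figure D1:**
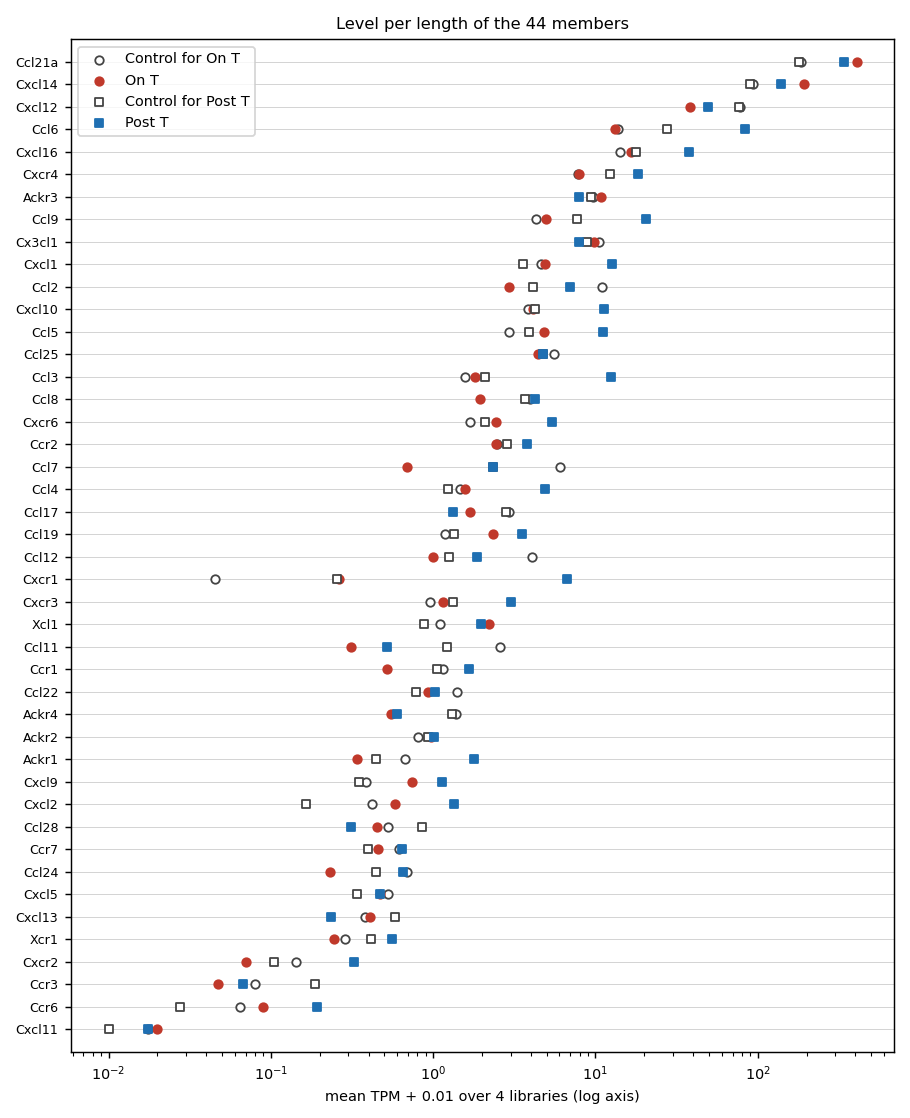
Mean TPM plus 0.01 of each member on a log axis, 1 symbol for each group of 4 libraries (circles for On T and its controls, squares for Post T and its controls, filled for testosterone). Ccl21a, Cxcl14 and Cxcl12 lie above 30 TPM in every group, and the filled squares of Cxcr1, Ccl3, Cxcl2 and Ccl6 lie well to the right of their other symbols.

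At the low end, 4 members were not tested. Cxcl11, an interferon-induced ligand of Cxcr3 annotated as a polymorphic pseudogene in GENCODE, held 0 to 2 counts in each of the 16 libraries. Ccl24, a ligand of the eosinophil receptor Ccr3, held 0 to 13 counts. Ccr3 itself held 1 to 24 counts and Ccr6, the receptor of Ccl20, held 0 to 9. No direction was read from these 4.

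Counts of called members were then set side by side for both testosterone groups, each against its own controls. On testosterone, 8 of 40 tested members were called by edgeR at an adjusted p under 0.05, where 9.27% of all tested genes were called. The members comprised 3 that rose (7.50% of 40, against 4.24% of all genes) and 5 that fell (12.5%, against 5.03%). After testosterone was stopped, 20 of 40 were called, where 12.3% of all genes were called. They comprised 19 that rose (47.5%, against 7.49%) and 1 that fell (2.50%, against 4.81%). Since members were listed with earlier results of these data known, their shares here and below may partly reflect that choice. Of the 8 tested genes on a list of other family genes, 0 rose and 1 fell in each comparison. That list left out the Ccl21a copies Ccl21b and Ccl21c. Ccl21c was called higher on testosterone (log2 1.12, edgeR adjusted p = 0.00284) and post testosterone (log2 0.90, edgeR adjusted p = 0.00863). Ccl21b was called in neither. The median log2 fold change of the 40 members was -0.04 on testosterone and 0.73 post testosterone, and that of all tested genes was -0.01 in both. Ccl21a, Cxcl14 and Cxcr1 were called in both comparisons, and 15 members in neither. With neither Post T control library 1 nor On T library 2 in the fit, the counts of called members were 8 and 20. The filter was applied anew in this fit, so members not tested with all 16 libraries could enter these counts. The 20 were not all the same members, since Cxcl9, Xcl1 and Cxcr2 lost their calls post testosterone. Among those gained were Cxcr4 (log2 1.03, edgeR adjusted p = 0.0013) and Ackr4 (log2 -1.49, edgeR adjusted p = 0.046).

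**Figure D2:**
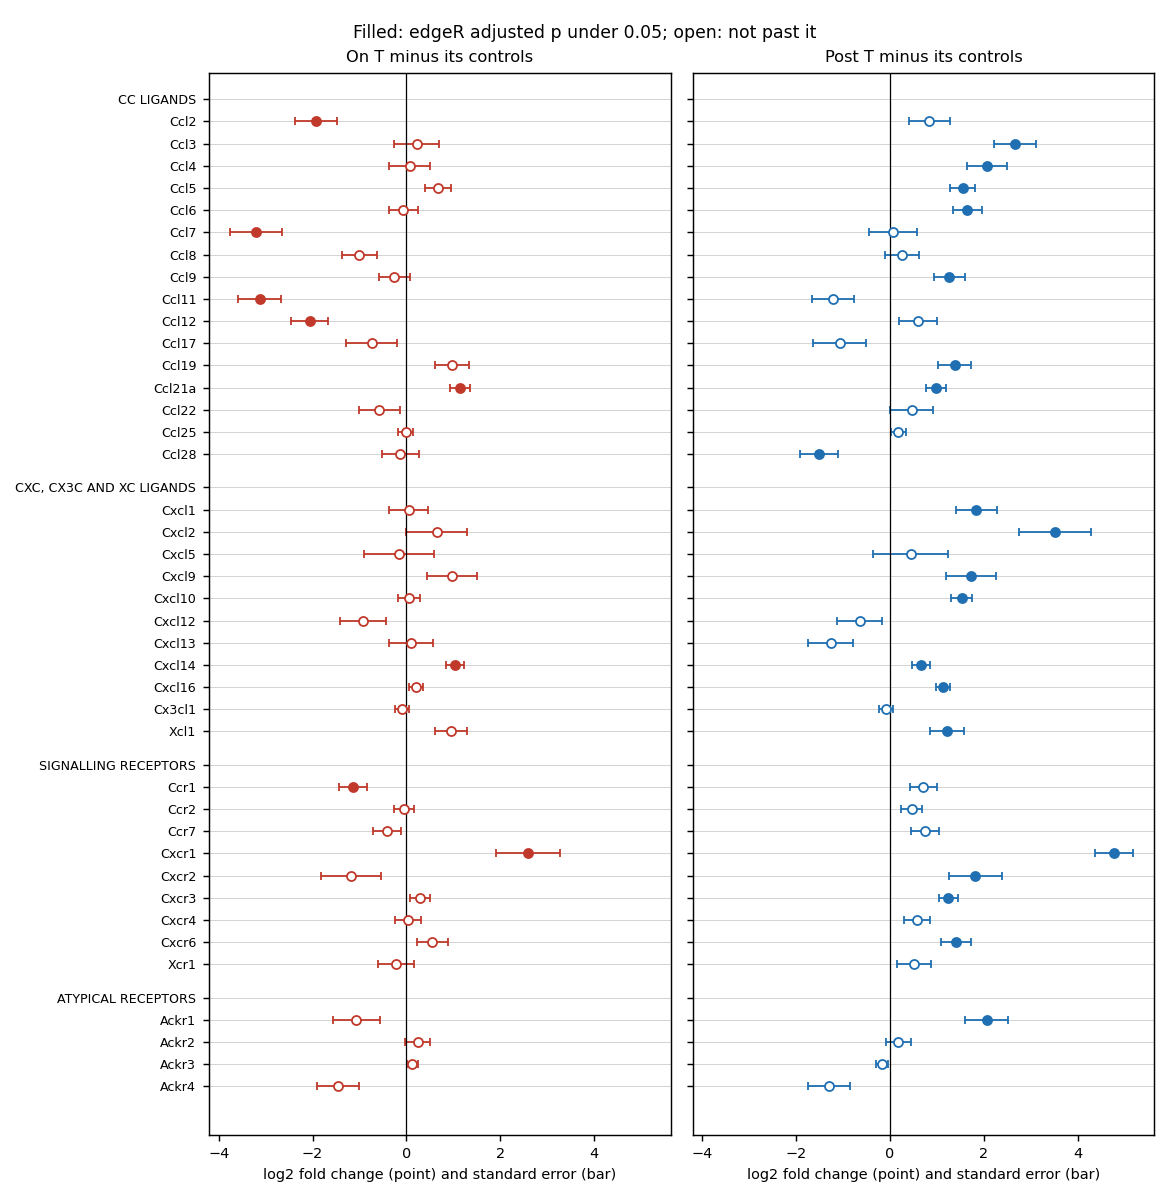
Log2 fold change (points) and standard error (bars) of the 40 tested members against their own controls, 4 libraries a group, ordered by role. Filled points are past an edgeR adjusted p of 0.05. The left panel has 5 filled points below 0, and the right panel has 19 filled points above 0 and Ccl28 alone below it.

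On testosterone, Ccl2, Ccl7, Ccl11 and Ccl12 fell, and with the uncalled Ccl8 they are the 5 neighbouring chemokine genes at chr11:82035571-82116799 (GRCm38). Ccl2, Ccl7 and Ccl12 are ligands of Ccr2, through which monocytes leave the blood, and Ccl11, or eotaxin, draws eosinophils through Ccr3. The median log2 fold change of the 5 genes was -2.06.

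Ccl11 had the smallest adjusted p of the group. It was at 1.12, 1.66, 1.74 and 1.92 CPM in the 4 controls and at 0.152, 0.360, 0.144 and 0.0867 CPM on testosterone. All controls lay above all testosterone libraries, by a wide gap (log2 -3.13, SE 0.47, edgeR adjusted p = 3.94e-04). Ccl7 was at 4.73, 1.70, 2.56 and 1.24 CPM in controls and at 0.286, 0.393, 0.260 and 0.173 CPM on testosterone. The controls differed among themselves but the lowest was still above every testosterone library (log2 -3.20, SE 0.56, edgeR adjusted p = 0.00149).

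Ccl2, the principal monocyte attractant, was at 6.67, 2.44, 5.98 and 3.71 CPM in controls and at 1.45, 1.93, 0.723 and 0.867 CPM on testosterone. The groups did not overlap, although control library 2 came near On T library 2 (log2 -1.92, SE 0.45, edgeR adjusted p = 0.0118). Ccl12, a mouse ligand of Ccr2, was at 0.907, 0.543, 0.843 and 1.19 CPM in controls and at 0.171, 0.360, 0.0867 and 0.231 CPM on testosterone. Again the groups did not overlap (log2 -2.06, SE 0.40, edgeR adjusted p = 0.00314). Ccl8, which in mice acts on Ccr8, was at 0.777 ± 0.0990 CPM (SD, n = 4) in controls and 0.382 ± 0.201 on testosterone, and although its groups did not overlap it was not called (log2 -1.0, SE 0.38, edgeR adjusted p = 0.123). Of the 40 members, 7 had all testosterone libraries below all controls, or 17.5%, and 4 had them above, or 10.0%, where 7.92% and 7.22% of all genes did.

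Of the receptors of these ligands, Ccr1 and Ccr2 were tested and Ccr3 was not. Ccr1, which binds Ccl7 as well as Ccl3, Ccl5, Ccl6 and Ccl9, fell from 2.05, 2.24, 1.64 and 2.92 CPM to 1.14, 1.02, 0.549 and 1.27 CPM, with no overlap (log2 -1.14, SE 0.30, edgeR adjusted p = 0.0226). The call of Ccr1 was lost without control library 2, control library 4 or On T library 3 (log2 -1.13 to -0.94, edgeR adjusted p = 0.0531 to 0.0863). Ccr2 was at 6.14 ± 1.46 CPM (SD, n = 4) in controls, against 5.92 ± 1.86 CPM on testosterone (log2 -0.05, SE 0.22, edgeR adjusted p = 0.917). Ccl2, Ccl7 and Ccl12 thus fell without a called change of Ccr2, and the difference between those changes was not tested.

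The homeostatic ligands Ccl21a and Cxcl14, made without inflammation, rose on testosterone. Ccl21a was at 95.5, 65.1, 89.7 and 96.2 CPM in controls and at 189, 265, 118 and 189 CPM on testosterone. All controls were below 100 and all testosterone libraries above it (log2 1.13, SE 0.21, edgeR adjusted p = 0.00265). Ccl21a shares 33.7% of its 150-base windows with the copies Ccl21b and others, so reads could be split among them. The copy Ccl21c held 57040 counts over the 16 libraries, against 76991 for Ccl21a and 510 for Ccl21b. Its row has no entry in the GENCODE annotation used here, so the windows it shares were not measured. With the rows of Ccl21a, Ccl21b and Ccl21c summed the value was log2 1.12, edgeR adjusted p = 0.00253. Cxcl14 was at 128, 92.4, 132 and 95.2 CPM in controls and at 217, 324, 165 and 212 CPM on testosterone, again without overlap (log2 1.03, SE 0.19, edgeR adjusted p = 0.00221). The rise of Ccl21a stood beside higher markers of lymphatic endothelium, of which 3 of 6 rose (Pdpn, Mmrn1 and Reln) and 0 fell, with a sum of 151 to 159 CPM in controls and 198 to 285 CPM on testosterone. On testosterone 4.24% of all tested genes rose. The part of lymphatic endothelium in the result was not tested.

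Cxcr1, a neutrophil receptor, was called higher on testosterone from very few reads. It held 2, 0, 0 and 2 counts in the 4 controls and 12, 3, 2 and 10 on testosterone, a ratio of 6.78 of the pooled CPM with an exact 95% interval of 2.36 to 26.7 that covers counting error only. Its fitted value (log2 2.59, SE 0.67, edgeR adjusted p = 0.0224) depends on the prior count, and the call was lost without control mouse 2 or 3, and without On T mouse 1 or 4 (log2 2.21 to 2.39, edgeR adjusted p = 0.0575 to 0.0769).

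**Figure D3:**
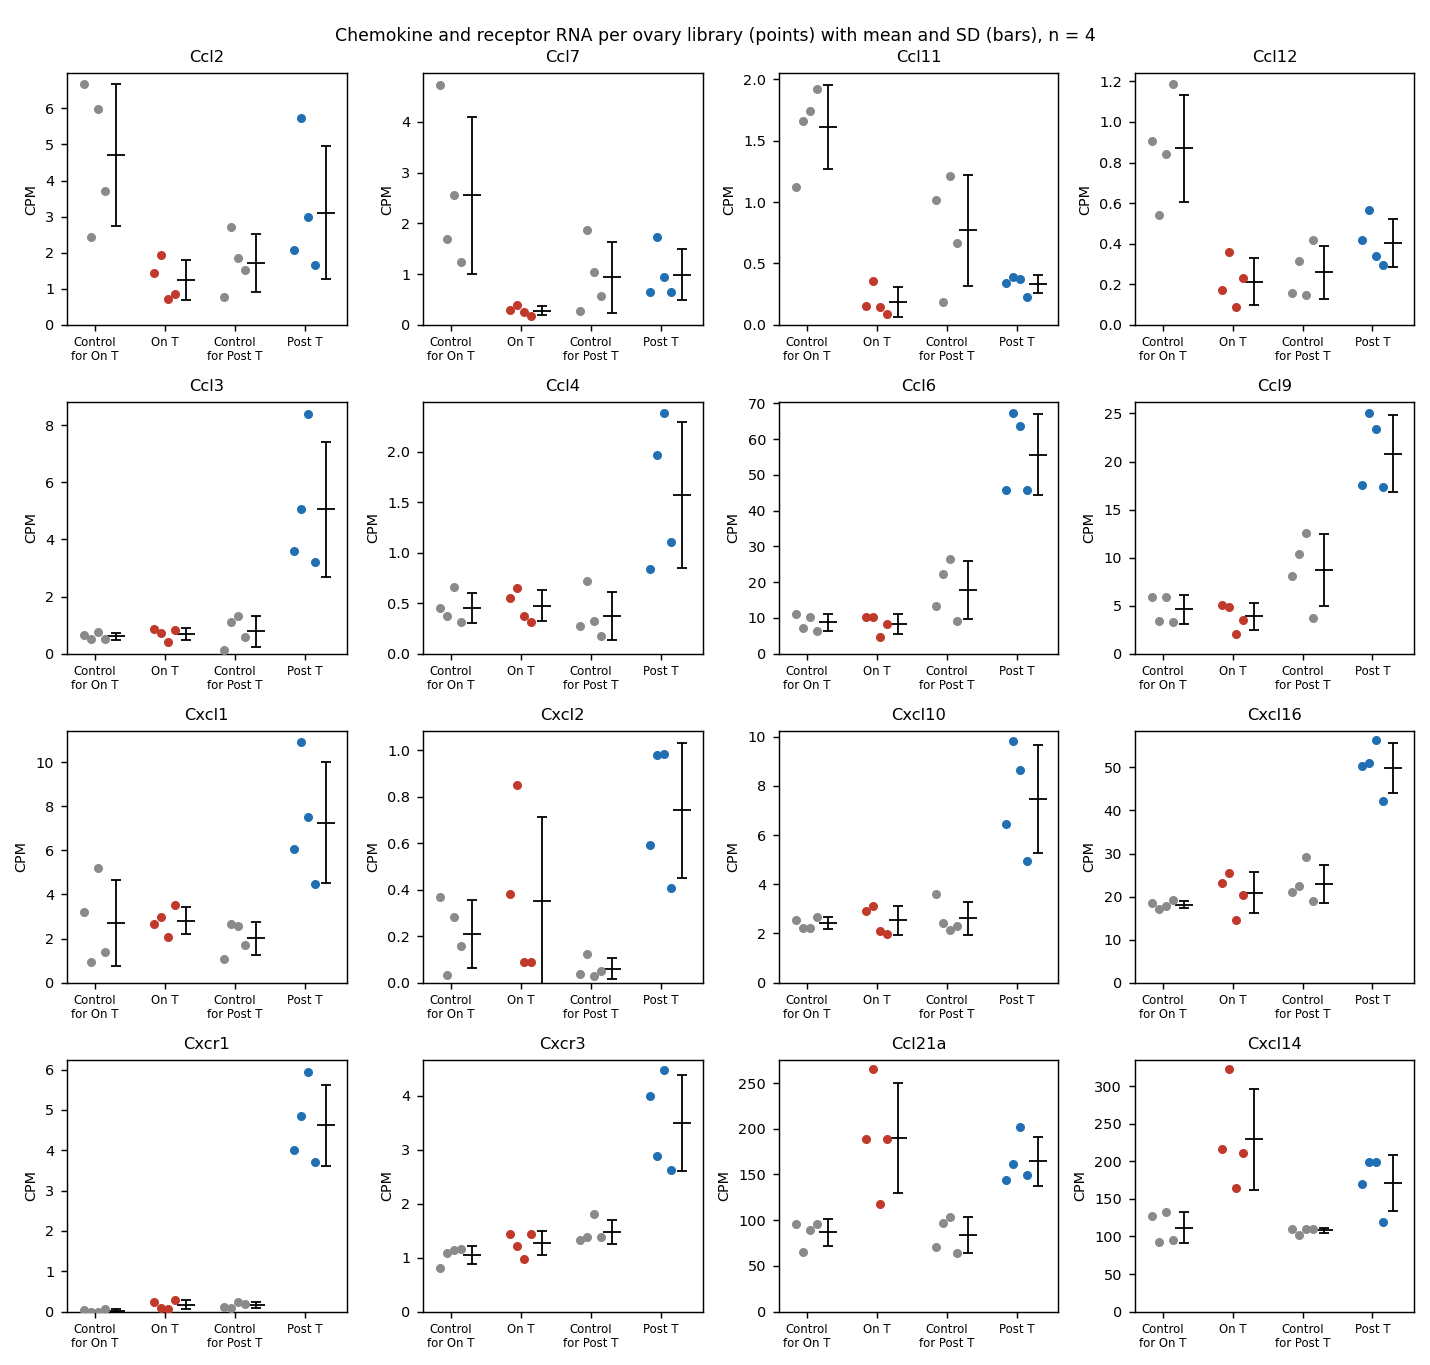
CPM of 16 members in each library (points), with mean and SD (bars) of 4 libraries a group. The top row shows Ccl2, Ccl7, Ccl11 and Ccl12 higher in every control for On T than in every On T library, and the next rows show ligands and receptors that are higher in every Post T library than in every control for Post T. Ccl21a and Cxcl14 are higher in both testosterone groups.

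After testosterone was stopped, ligands and receptors of several classes were called higher. Of 16 tested CC ligands 7 rose and 1 fell, of 11 CXC, CX3C and XC ligands 7 rose, of 9 signalling receptors 4 rose, and of 4 atypical receptors 1 rose. Of all tested genes 7.49% rose and 4.81% fell. The CC ligands that rose were Ccl3, Ccl4, Ccl5, Ccl6, Ccl9, Ccl19 and Ccl21a. Of these, Ccl5, Ccl9, Ccl6, Ccl3 and Ccl4 are neighbours at chr11:83525778-83664683 (GRCm38), and all 5 rose, with a median log2 fold change of 1.64. Ccl3 and Ccl4 are macrophage inflammatory proteins, Ccl5 draws T cells and monocytes, and Ccl6 and Ccl9 are mouse ligands of Ccr1.

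Ccl3 was at 0.117, 1.12, 1.3 and 0.590 CPM in controls and at 3.59, 5.05, 8.39 and 3.21 CPM post testosterone. The lowest Post T library was above the highest control (log2 2.66, SE 0.45, edgeR adjusted p = 5.19e-04). Ccl4 was at 0.273, 0.718, 0.326 and 0.172 CPM in controls and at 0.836, 1.96, 2.38 and 1.11 CPM post testosterone. Here Post T library 1 lay only just above control library 2, and the groups were otherwise far apart (log2 2.06, SE 0.43, edgeR adjusted p = 0.00306).

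Ccl6, the most abundant of the 5 per length, was at 13.2, 22.3, 26.5 and 9.12 CPM in controls and at 45.8, 67.2, 63.5 and 45.9 CPM post testosterone. No library overlapped (log2 1.64, SE 0.31, edgeR adjusted p = 0.00131). Ccl9 was at 8.11, 10.4, 12.6 and 3.76 CPM in controls and at 17.6, 25.0, 23.4 and 17.3 CPM post testosterone, also without overlap (log2 1.26, SE 0.33, edgeR adjusted p = 0.0164). Ccl5 was at 0.857, 0.874, 0.681 and 0.885 CPM in controls and at 2.43, 2.73, 2.62 and 1.90 CPM post testosterone. Its controls were close to each other and every Post T library exceeded them (log2 1.55, SE 0.26, edgeR adjusted p = 5.72e-04).

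The 2 neighbouring groups of chromosome 11 were called in different comparisons. Of the group from Ccl2 to Ccl8, 4 of 5 fell on testosterone and 0 were called post testosterone, where Ccl2 had log2 0.84, Ccl7 0.06, Ccl11 -1.21, Ccl12 0.59 and Ccl8 0.26. Without control library 2 Ccl11 was called lower post testosterone (log2 -1.52, edgeR adjusted p = 0.00954). Of the group from Ccl5 to Ccl4, 0 were called on testosterone and 5 rose post testosterone. Without On T library 3 Ccl5 was called higher on testosterone (log2 0.91, edgeR adjusted p = 0.0183). Of the 22 other tested protein-coding genes from Ccl2 to Ccl4, 1 rose (Rad51d) and 0 fell on testosterone. Post testosterone 5 of the 22 rose, all of the Schlafen family (Slfn5, Slfn8, Slfn2, Slfn1 and Slfn14), and 0 fell. Of all tested genes 4.24% rose and 5.03% fell on testosterone, and 7.49% rose and 4.81% fell post testosterone. In the direct test of the difference of effects, given below, 3 of 5 genes of the first group and 2 of 5 of the second were called. This division by position was made with the results known.

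**Figure D4:**
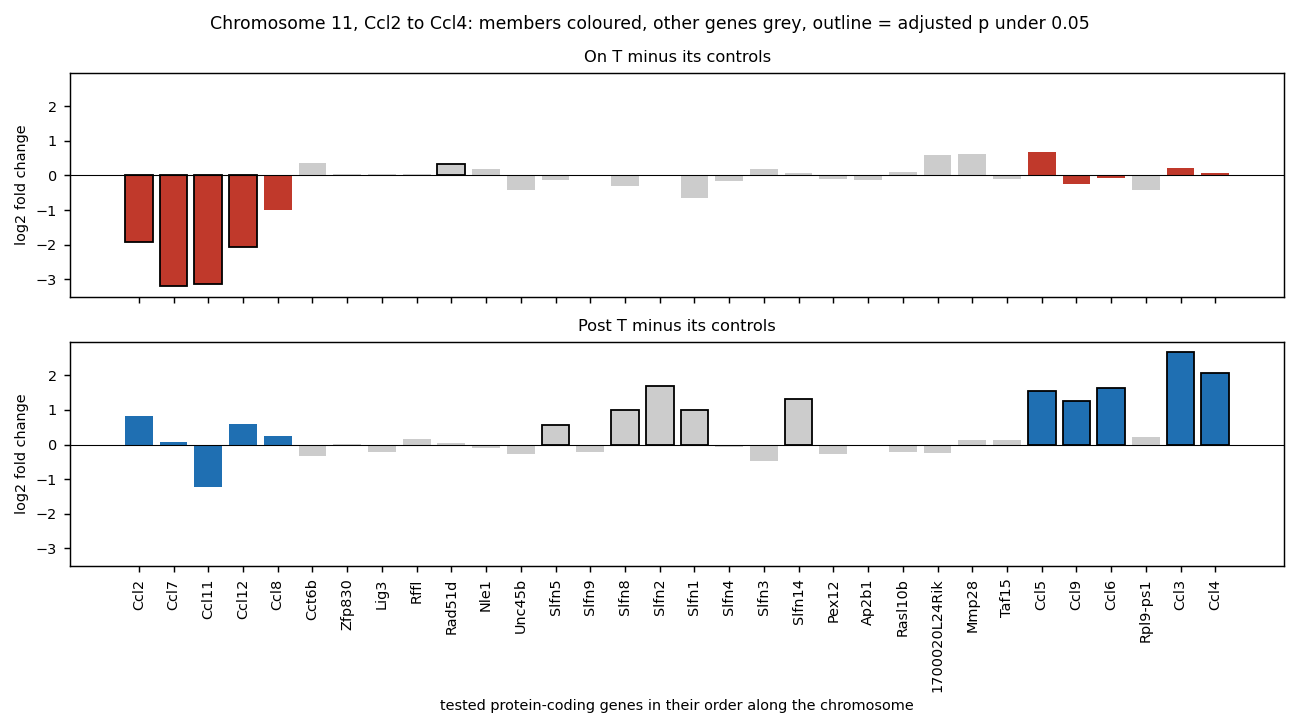
Log2 fold change of the tested protein-coding genes of chromosome 11 from Ccl2 to Ccl4, in their order along the chromosome, on testosterone (top) and post testosterone (bottom), each against 4 controls. Members are coloured and an outline marks an edgeR adjusted p under 0.05. The outlined members are the 4 leftmost in the top panel and the 5 members at the right end of the bottom panel.

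The ligands of Ccr7, a receptor of dendritic and naive T cells, rose as well. Ccl19, made by stromal cells of lymphoid tissue, was at 0.351, 0.687, 0.474 and 0.344 CPM in controls and at 1.13, 1.46, 1.46 and 0.835 CPM post testosterone, without overlap (log2 1.38, SE 0.35, edgeR adjusted p = 0.0148). The call was lost without control library 4 (log2 1.25, edgeR adjusted p = 0.0584), and 32.4% of the 150-base windows of Ccl19 are shared with pseudogene copies. On testosterone Ccl19 was not called (log2 0.98, SE 0.36, edgeR adjusted p = 0.112), but it was without On T library 3 (log2 1.23, edgeR adjusted p = 0.0323). Ccl21a was at 70.7, 97.1, 103 and 64.0 CPM in controls and at 144, 161, 202 and 149 CPM post testosterone, without overlap (log2 0.97, SE 0.21, edgeR adjusted p = 0.00513), and with its copies summed the value was log2 0.93, edgeR adjusted p = 0.00616. Of the lymphatic markers 0 of 6 were called post testosterone, and their sum was 124 to 185 CPM in controls and 185 to 261 CPM post testosterone. Ccr7, the receptor of both ligands, was at 0.515 ± 0.138 CPM (SD, n = 4) in controls and 0.863 ± 0.274 post testosterone and was not called (log2 0.74, SE 0.30, edgeR adjusted p = 0.137).

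Cxcl1, Cxcl2, Cxcl9, Cxcl10 and Cxcl16 rose, as did their receptors Cxcr2, Cxcr3 and Cxcr6. Cxcl1, which draws neutrophils through Cxcr2, was at 1.09, 2.65, 2.58 and 1.72 CPM in controls and at 6.07, 10.9, 7.54 and 4.47 CPM post testosterone. The groups did not overlap (log2 1.84, SE 0.43, edgeR adjusted p = 0.00853). Cxcl2, its close relative, held 8 counts in the 4 controls and 104 in the Post T libraries, a ratio of 11.6 with an exact 95% interval of 5.67 to 27.6 that covers counting error only. Its levels were 0.0390, 0.125, 0.0296 and 0.0492 CPM in controls and 0.590, 0.981, 0.985 and 0.406 CPM post testosterone (log2 3.52, SE 0.77, edgeR adjusted p = 0.00486). Cxcl5, another ligand of Cxcr2, was at 0.349 ± 0.276 CPM (SD, n = 4) in controls and 0.483 ± 0.422 post testosterone and was not called (log2 0.44, SE 0.81, edgeR adjusted p = 0.825).

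Cxcl10 and Cxcl9, which interferons induce and which draw T cells and natural killer cells through Cxcr3, were higher too. Cxcl10 was at 3.58, 2.44, 2.13 and 2.29 CPM in controls and at 6.44, 9.84, 8.66 and 4.96 CPM post testosterone. Every Post T library was above every control (log2 1.52, SE 0.23, edgeR adjusted p = 1.83e-04). Cxcl9 was at 0.662, 0.656, 0.533 and 0.885 CPM in controls and at 1.72, 4.58, 1.83 and 1.06 CPM post testosterone, with Post T library 2 far above the others (log2 1.73, SE 0.54, edgeR adjusted p = 0.0436). The call of Cxcl9 was lost without any of the 4 controls or Post T libraries 1, 2 or 3 (log2 1.17 to 1.89, edgeR adjusted p = 0.0503 to 0.187).

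Cxcl16, a ligand of Cxcr6 that is also a scavenger receptor of oxidised lipoprotein, had the smallest adjusted p of the ligands. It was at 21.2, 22.4, 29.1 and 18.9 CPM in controls and at 50.3, 50.9, 56.4 and 42.3 CPM post testosterone. The groups were well apart (log2 1.13, SE 0.16, edgeR adjusted p = 7.65e-05). Zmynd15, on the opposite strand over 18.3% of its exon bases, was not called (log2 0.57, edgeR adjusted p = 0.0759). Cxcl14 was at 110.1, 103, 109.8 and 110.1 CPM in controls and at 169.8, 199, 199 and 119 CPM post testosterone. The 4 controls were close together and Post T library 4 was only just above them (log2 0.67, SE 0.19, edgeR adjusted p = 0.0279). The call of Cxcl14 was lost without any of the 4 controls or Post T libraries 1, 2 or 3 (log2 0.59 to 0.70, edgeR adjusted p = 0.0501 to 0.0883).

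Xcl1, made by natural killer cells and activated T cells, was at 0.156, 0.250, 0.178 and 0.123 CPM in controls and at 0.393, 0.505, 0.543 and 0.226 CPM post testosterone. Post T library 4 lay below control library 2, so the groups overlapped (log2 1.21, SE 0.37, edgeR adjusted p = 0.0399). The call was lost without control mouse 1, 3 or 4, and without Post T mouse 1, 2 or 3 (log2 1.05 to 1.26, edgeR adjusted p = 0.0672 to 0.136). Gm20743 lies on the opposite strand over 18.7% of the exon bases of Xcl1. Ccl28, a mucosal ligand of Ccr10 and Ccr3, was the member that fell. It was at 3.00, 0.843, 1.78 and 3.39 CPM in controls and at 0.811, 0.951, 0.577 and 0.790 CPM post testosterone, and control library 2 lay among the Post T values (log2 -1.52, SE 0.40, edgeR adjusted p = 0.0187). The call was lost without control mouse 1 or 4, and without Post T mouse 3 or 4 (log2 -1.51 to -1.24, edgeR adjusted p = 0.0510 to 0.0814).

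Promoters of the ligands that rose are shown because 4 of them hold a match to the NF-kB consensus, the binding motif of a transcription factor known to drive inflammatory chemokines. Each line gives 250 bases before the start, 5′ to 3′ on the gene's strand, from RefSeq (GRCm38.p6), with bases of a match in capitals. Cxcl1 lies at chr5:90890995-90891244 on the plus strand, Cxcl2 at chr5:90903649-90903898 on the plus strand, Cxcl10 at chr5:92348890-92349139 on the minus strand and Ccl9 at chr11:83578637-83578886 on the minus strand.
Cxcl1: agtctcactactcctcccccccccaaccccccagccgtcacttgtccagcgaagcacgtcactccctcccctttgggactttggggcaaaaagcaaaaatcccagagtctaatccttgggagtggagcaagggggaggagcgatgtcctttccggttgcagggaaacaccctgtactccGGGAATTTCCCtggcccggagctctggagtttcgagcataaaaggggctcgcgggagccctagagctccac
Cxcl2: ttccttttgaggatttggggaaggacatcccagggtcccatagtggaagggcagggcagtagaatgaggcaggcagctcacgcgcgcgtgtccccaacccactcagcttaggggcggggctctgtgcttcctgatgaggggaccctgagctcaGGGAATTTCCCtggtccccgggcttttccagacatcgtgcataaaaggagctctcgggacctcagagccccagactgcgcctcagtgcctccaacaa
Cxcl10: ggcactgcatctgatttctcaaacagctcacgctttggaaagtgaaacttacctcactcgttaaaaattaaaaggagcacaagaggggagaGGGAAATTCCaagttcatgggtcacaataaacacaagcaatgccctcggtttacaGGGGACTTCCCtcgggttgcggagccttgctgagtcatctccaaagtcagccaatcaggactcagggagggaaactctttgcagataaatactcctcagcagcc
Ccl9: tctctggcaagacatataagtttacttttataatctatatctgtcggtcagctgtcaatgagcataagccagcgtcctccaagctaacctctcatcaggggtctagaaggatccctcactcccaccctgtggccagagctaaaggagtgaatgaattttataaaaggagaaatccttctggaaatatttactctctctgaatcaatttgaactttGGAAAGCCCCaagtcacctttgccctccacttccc

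Cxcl1 and Cxcl2 hold the same 11 capital letters, 2 overlapping matches that begin 71 bases before the start of Cxcl1 and 97 bases before that of Cxcl2. Cxcl10 holds a match 159 bases and an overlapping pair 104 bases before its start, and Ccl9 holds 1 match at 35 bases. Both strands were searched in the 34 members with an entry in the RefSeq table. The NF-kB consensus was in 8 of 34 (23.5%), against 7.25% of 32851 promoters, and in 4 of the 16 members that rose post testosterone and 4 of the other 18. The other 18 included Ccr3 and Ccr6, which both held this match but were not tested for a change. The core of the interferon-stimulated response element, GAAA followed after 2 bases by GAAA, was in Ccl19, Cxcl10 and Cxcl14, 3 of the 16 that rose and 0 of the other 18, against 2.98% of all promoters. The motif TTCNNNGAA, bound by STAT factors, was in 1 of the 16 and 2 of the other 18, against 7.02%. The full androgen response element, AGAACA and TGTTCT with 3 bases between them, was in 0 of 34, against 0.00913%. A match describes the letters and is not a binding site.

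Among the signalling receptors, Cxcr1 changed most post testosterone. It was at 0.117, 0.0937, 0.237 and 0.197 CPM in controls and at 4.01, 4.84, 5.94 and 3.70 CPM post testosterone. Controls held 3 to 8 counts a library and Post T libraries 163 to 175, a ratio of 27.0 of the pooled CPM with an exact 95% interval of 17.7 to 43.3 that covers counting error only (log2 4.78, SE 0.41, edgeR adjusted p = 5.71e-07). Cxcr2, the main neutrophil chemokine receptor of the mouse, was at 0.156, 0.437, 0.0592 and 0.123 CPM in controls and at 0.443, 0.951, 0.679 and 0.677 CPM post testosterone. Control library 2 lay just below Post T library 1 (log2 1.82, SE 0.56, edgeR adjusted p = 0.0414). Without control library 2 the value of Cxcr2 was log2 2.61, and the call was lost without control mouse 1, 3 or 4, and without Post T mouse 2, 3 or 4 (log2 1.54 to 1.85, edgeR adjusted p = 0.0737 to 0.133).

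Cxcr3, the receptor of Cxcl9 and Cxcl10 on T cells, was at 1.32, 1.37, 1.81 and 1.38 CPM in controls and at 4.01, 2.88, 4.48 and 2.62 CPM post testosterone. The groups did not overlap (log2 1.24, SE 0.21, edgeR adjusted p = 5.57e-04). Cxcr6, the receptor of Cxcl16 on T cells and natural killer T cells, was at 2.73, 2.84, 2.87 and 2.07 CPM in controls and at 6.69, 6.81, 7.17 and 7.06 CPM post testosterone. The 4 Post T libraries were close to each other and far above the controls (log2 1.40, SE 0.32, edgeR adjusted p = 0.00719). On testosterone Cxcr6 was not called (log2 0.55, SE 0.32, edgeR adjusted p = 0.344), but it was without control library 4 (log2 1.19, edgeR adjusted p = 0.00303). Ccr1 and Ccr2, receptors of monocytes, were not called post testosterone. Ccr1 was at 2.03 ± 0.684 CPM (SD, n = 4) in controls and 3.33 ± 0.893 post testosterone (log2 0.71, SE 0.28, edgeR adjusted p = 0.134). Ccr2 was at 9.47 ± 1.25 CPM post testosterone, against 6.88 ± 1.25 in controls (log2 0.46, SE 0.22, edgeR adjusted p = 0.219).

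Cxcr4 and its ligand Cxcl12 were not called in either comparison. Cxcl12 ranged from 49.3 to 266 CPM among the controls for On T and from 69.5 to 272 CPM among the controls for Post T, and both testosterone groups lay within those ranges (log2 -0.93 and -0.65, edgeR adjusted p = 0.279 and 0.484). Cxcr4 was at 24.8, 11, 12.0 and 7.65 CPM in controls for Post T and at 17.8, 18.0, 20.8 and 25.4 CPM post testosterone. Control library 1 was near the highest Post T library and the other controls were below all of them (log2 0.57, SE 0.27, edgeR adjusted p = 0.222), and without it Cxcr4 was called (log2 1.03, edgeR adjusted p = 0.00313).

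Of the atypical receptors, Ackr1, which carries chemokines across venules, rose post testosterone. It was at 0.390, 0.344, 0.118 and 0.344 CPM in controls and at 2.11, 0.535, 1.36 and 0.970 CPM post testosterone, without overlap (log2 2.06, SE 0.46, edgeR adjusted p = 0.00565). Its exons overlap those of Cadm3 on the same strand over 25.7% of their bases, and Cadm3 was also higher (log2 1.93, edgeR adjusted p = 0.00855), so how reads were divided between them is uncertain. Ackr4, which scavenges Ccl19, Ccl21a and Ccl25, was at 1.77 ± 0.970 CPM (SD, n = 4) in controls for On T, against 0.639 ± 0.189 CPM on testosterone (log2 -1.46, SE 0.45, edgeR adjusted p = 0.0530). Post testosterone Ackr4 was at 0.700 ± 0.175 CPM against 1.68 ± 1.14 in controls (log2 -1.29, SE 0.45, edgeR adjusted p = 0.0740). With all 16 libraries DESeq2 called Ackr4 lower on testosterone (log2 -1.45, DESeq2 adjusted p = 0.0154) and post testosterone (log2 -1.29, DESeq2 adjusted p = 0.0332), and edgeR with no filter called it lower on testosterone (log2 -1.44, edgeR adjusted p = 0.0475). With the filter, edgeR called it lower on testosterone without control library 1 or 3 (log2 -1.67 and -1.66, edgeR adjusted p = 0.0317 and 0.0360) and post testosterone without control library 1 (log2 -1.49, edgeR adjusted p = 0.0416). Ackr2, a scavenger of inflammatory CC ligands, and Ackr3 were not called in either comparison, with log2 values between -0.17 and 0.24.

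The remaining members were not called in either comparison. Ccl17 and Ccl22, ligands of Ccr4 from dendritic cells and macrophages, had log2 values of -0.74 and -0.58 on testosterone and -1.08 and 0.46 post testosterone. Ccl25, the thymic and gut ligand of Ccr9, had -0.02 and 0.17, with standard errors of 0.16 in both. Cxcl13, which draws B cells through Cxcr5, had log2 0.09 on testosterone and -1.27 post testosterone. Post testosterone its libraries lay below all controls, but it was not called (edgeR adjusted p = 0.111). Xcr1, the Xcl1 receptor of cross-presenting dendritic cells, had log2 -0.23 and 0.51. Cx3cl1, a membrane-bound chemokine, had -0.09 and -0.09. Post testosterone, 18 of the 40 members had all Post T libraries above all controls, or 45.0%, and 1 had them below, or 2.50%, where 9.62% and 6.92% of all genes did.

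The difference between the effect post testosterone and the effect on testosterone was tested directly. Of 40 members 9 were called (3.25% of all tested genes were), all with the higher effect post testosterone (22.5%, against 2.93% of all genes) and 0 with the lower (against 0.324%). Of the 9, 4 had fallen on testosterone, namely Ccl7 (log2 3.26, SE 0.76, edgeR adjusted p = 0.0234), Ccl2 (log2 2.76, SE 0.63, edgeR adjusted p = 0.0211), Ccl12 (log2 2.65, SE 0.57, edgeR adjusted p = 0.0148) and Ccr1 (log2 1.85, SE 0.41, edgeR adjusted p = 0.0182). The other 5 had risen post testosterone, namely Ackr1 (log2 3.12, SE 0.67, edgeR adjusted p = 0.0147), Ccl3 (log2 2.44, SE 0.65, edgeR adjusted p = 0.0499), Ccl6 (log2 1.71, SE 0.43, edgeR adjusted p = 0.0394), Cxcl10 (log2 1.46, SE 0.32, edgeR adjusted p = 0.0174) and Cxcl16 (log2 0.92, SE 0.22, edgeR adjusted p = 0.0270). Ccl21a, Cxcl14 and Cxcr1, which rose in both comparisons, were not called for a difference (log2 -0.16, -0.37 and 2.19, edgeR adjusted p = 0.864, 0.586 and 0.377). For Cxcr1 limma on log2(TPM + 1) called the difference (2.36 on that scale, limma adjusted p = 1.71e-06), while the other alternatives did not.

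Several of these calls turned on single libraries. That of Ccl2 was lost without On T library 4 (log2 2.64, edgeR adjusted p = 0.0523), and that of Ccl7 without any of 5 libraries, On T control 1, Post T control 4, On T 1 and 4 and Post T 2 (log2 2.77 to 3.29, edgeR adjusted p = 0.0506 to 0.0579). Those of Ccl3, Ccl6 and Cxcl16 were lost without 12, 8 and 9 of the 16 libraries in turn. The lowest log2 values then were 2.09, 1.49 and 0.84, with edgeR adjusted p of at most 0.106, 0.0857 and 0.0620. Those of Ccl12, Cxcl10, Ccr1 and Ackr1 kept their calls in each fit without a library. Ccl4, Cxcl1, Cxcl2 and Cxcr2 were called for a difference in 1 or 2 such fits each (log2 2.08 to 3.78, edgeR adjusted p = 0.0212 to 0.0496). With Post T control library 4 left out 5 members were called, with On T library 4 left out 4, and with Post T library 2 left out 5.

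The controls of the 2 cohorts, which differ in age, were also compared for the group from Ccl2 to Ccl8, of which 0 were called. Ccl2 was at 4.70 ± 1.97 CPM (SD, n = 4) in the younger controls and 1.72 ± 0.804 in the older ones (log2 -1.45, edgeR adjusted p = 0.258). Ccl12 was at 0.870 ± 0.264 CPM in the younger and 0.259 ± 0.131 in the older controls (log2 -1.71, edgeR adjusted p = 0.163), beside a mean of 0.212 CPM on testosterone. Ccl7 and Ccl11 had log2 -1.45 and -1.07, and Ccl8 -0.12 (edgeR adjusted p = 0.310, 0.363 and 0.943). No member was called between the controls by edgeR, where 0.0% of all tested genes were called. At an unadjusted p under 0.05 there were 10 of 40 members, a higher share than the 1892 of 18833 genes in all (10.0%). DESeq2 called 1 member, Ccl12. Age and cohort cannot be told apart between the 2 sets of controls.

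Ligands were then set beside their receptors in 41 pairs of textbook partners, 29 of them with both genes tested. The pairs did not include Cxcr1 and Ackr1, which rose post testosterone, nor Ackr2. Post testosterone both partners rose in 5 pairs, those of Cxcr2 with Cxcl1 and Cxcl2, of Cxcr3 with Cxcl9 and Cxcl10 and of Cxcr6 with Cxcl16. In 12 pairs the ligand rose and the receptor did not. Among these were those of Ccr1 with Ccl3, Ccl5, Ccl6 and Ccl9. On testosterone 0 pairs rose together, 1 fell together, Ccr1 with Ccl7, and in 2 pairs Ccl21a rose without its receptors Ccr7 and Ackr4. Pairs that share a gene are not separate results.

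Of a list of 18 other genes of the family, which left out Ccl21b and Ccl21c, 8 were tested. Cx3cr1, the fractalkine receptor of tissue macrophages, fell in both comparisons, from 14.4 to 8.08 CPM on testosterone (log2 -0.83, SE 0.18, edgeR adjusted p = 0.00729) and from 12.5 to 6.90 CPM post testosterone (log2 -0.86, SE 0.18, edgeR adjusted p = 0.00374). Its ligand Cx3cl1 was not called in either. The other 7 tested genes were not called, among them Pf4, a platelet chemokine, and Ccrl2, which presents chemerin. Of 18 tested genes that carry or limit chemokine receptor signals, 1 rose on testosterone, Pik3r5 (log2 1.00, edgeR adjusted p = 0.0116), and 0 fell. Of all tested genes 4.24% rose and 5.03% fell on testosterone. Post testosterone 7 of the 18 rose (38.9%, against 7.49% of all tested genes) and 0 fell (against 4.81%). They were Pik3r5 and Pik3cg of the phosphoinositide kinase that G proteins activate, Rac2, Dock2 and Prex1, which drive the leukocyte cytoskeleton, Rgs1, which ends the G protein signal, and Arrb1, an arrestin. Pik3r5 had the largest log2 value of the 7 at 2.79 and Prex1 the smallest at 0.46.

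Markers of leukocytes were counted in the same libraries, where 4.24% of all tested genes rose and 5.03% fell on testosterone. Post testosterone 7.49% of all tested genes rose and 4.81% fell. Of 13 macrophage markers such as Cd68 and Csf1r, 4 rose on testosterone and 8 post testosterone, and 0 fell. Their summed level was 336 to 487 CPM in controls for On T, 538 to 992 on testosterone, 480 to 1060 in controls for Post T and 3311 to 5045 post testosterone. Without Lyz2, the most abundant of them post testosterone, the sum was 203 to 265, 193 to 352, 253 to 396 and 704 to 1018 CPM in the same order. Of 9 neutrophil markers 3 were tested, and S100a8 and Csf3r rose post testosterone. The neutrophil sum was 2.45 to 5.32 CPM in controls for On T, 1.59 to 3.6 on testosterone, 3.00 to 5.18 in controls for Post T and 8.64 to 12.7 post testosterone. Among the same 9 markers, Ly6g and Elane held only 4 and 3 counts over all 16 libraries. The part of these cells in the results was not tested.

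Of 11 tested markers of T and natural killer cells, 1 rose on testosterone (Cd4) and 5 post testosterone (Cd3d, Cd3e, Cd4, Trac and Nkg7). Their sum was 6.08 to 10.1 CPM in controls for On T, 7.95 to 13.4 on testosterone, 8.68 to 14.6 in controls for Post T and 28.5 to 40.1 post testosterone. Much of this sum was Cd4, and without it the sum was 4.54 to 8.16, 4.22 to 8.02, 6.44 to 7.52 and 11 to 14.0 CPM in the same order. Of 4 tested markers of eosinophils and mast cells Siglecf rose in both comparisons. Epx, an eosinophil marker too low to be tested, held 3 counts in all. Of 8 dendritic cell markers 1 fell on testosterone (Batf3) and 0 were called post testosterone. Of 10 markers of blood endothelium Vwf rose in both comparisons and Selp post testosterone. The sum of adipocyte markers was 24.1 to 46.1 CPM in controls for Post T and 123 to 132 post testosterone, where 1 of 4 rose (Fabp4). Most of the Post T sum was Fabp4, which held 2066 counts in these controls and 13295 post testosterone. Plin1 held 2047 and 5381 counts in the same order, Adipoq 104 and 101, Cidec 149 and 137 and Lep 18 and 21. Of 4 tested oviduct markers 0 were called. Of the ovary markers Star and Cyp11a1 fell on testosterone and Star post testosterone. The part of these cells in the results was not tested.

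**Figure D5:**
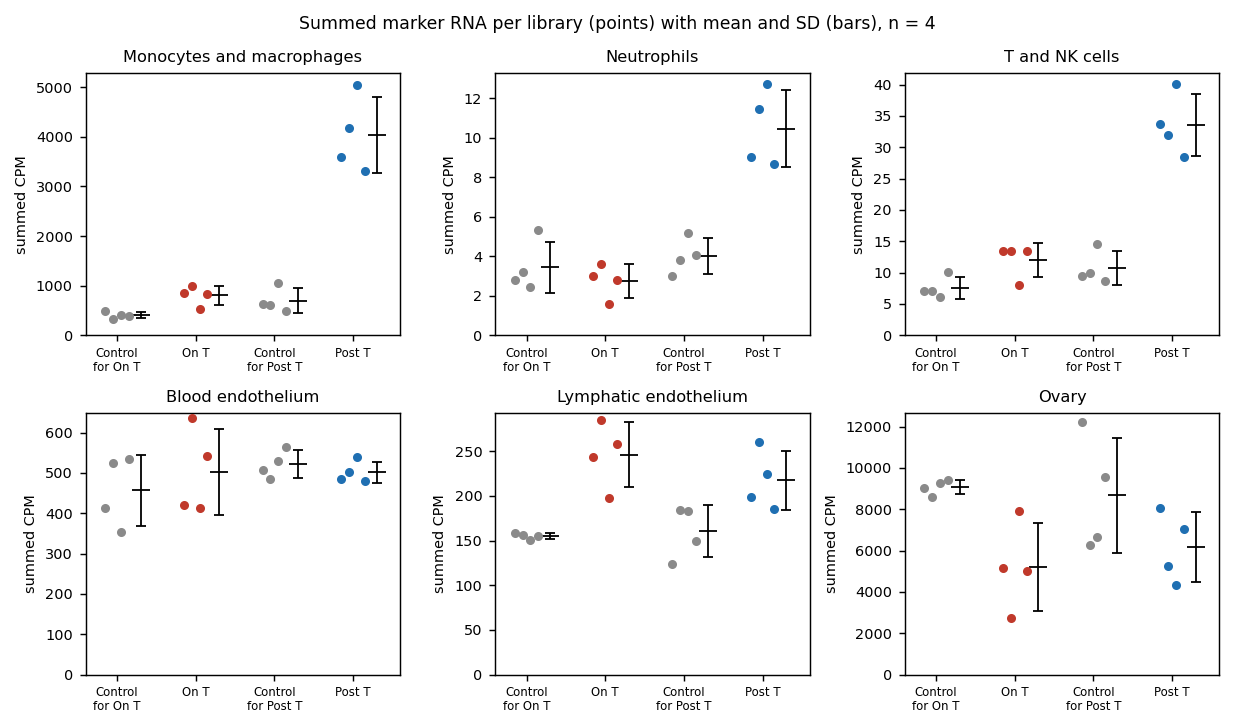
Summed CPM of the markers of 6 cell types or tissues in each library (points) with mean and SD (bars) of 4 libraries. The macrophage, neutrophil and T and natural killer cell sums of the Post T libraries lie above those of all 12 others, the lymphatic sum is higher in the On T libraries than in their controls, and the ovary sums of the On T libraries lie below those of their own controls.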

How the data were processed

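The members, lists, pairs and tests were chosen with earlier results of these data known. Per the submitters' processing notes, STAR 2.7.8a, RSEM 1.3.3, the build GRCm38, FastQC 0.11.8 and cutadapt 2.3 were used, named without role or order. The deposited expected counts are the authors' estimates per gene, not normalized, and were rounded to whole numbers here. The deposited TPM values are the authors' own, scaled for gene length and library size, and deposited FPKM values were not used. Which annotation release was used, and whether counting was stranded, is not given in the sources used here.

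Low genes were removed (filterByExpr, minimum count 10), all 16 libraries were fitted together in R 4.3.3 with edgeR 4.0.16 (TMM scaling, quasi-likelihood test, Benjamini-Hochberg adjustment over 18833 genes), and contrasts were called at 0.05. The pipeline was tested on simulated data. Each library is a separate mouse per the labels. Library totals were 26598055 to 52659637 counts, and intervals and the floor of 3 counts cover counting error only. Ccl19 and Ccl21a each have a further row listed at 0 in all libraries, so the 44 members fill 46 rows.

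Named were members called in a treatment comparison and their partners in 41 ligand and receptor pairs, with the other members in brief. Positions and shared 150-base windows came from GENCODE for GRCm38, and promoters from RefSeq. The other settings tried were DESeq2 1.42.0, median-of-ratios size factors, 1 CPM in 4 libraries as the filter, no filter, limma 3.58.1 on log2(TPM + 1), the 8 libraries compared alone, a replicate block and each library left out in turn. The fit with neither Post T control library 1 nor On T library 2, and summing the Ccl21 copies, were added after seeing the data. Results on some genes that are no members are not reported here.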

Additional observations from a re-analysis of the deposited data

Results flagged for a closer look

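In 10 of 160 groups of 4 libraries examined, the highest or the lowest library stood apart from the other 3, where chance gives about 1 in 20 groups. Among the controls for On T, library 4 was high for the T cell receptor Cxcr6 at 4.27 CPM, with the others at 1.32 to 1.38 CPM. Without this library Cxcr6 was called higher on testosterone (log2 1.19, edgeR adjusted p = 0.00303). The same library was high for the dendritic cell receptor Xcr1 at 1.45 CPM and low for the B cell attractant Cxcl13 at 0.0527 CPM, and control library 2 was high for Ccl25 at 3.22 CPM.

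Among the controls for Post T, library 3 was low for Ccl5 at 0.681 CPM and for Ackr1 at 0.119 CPM and high for Cxcr3 at 1.81 CPM. Library 2 was high for Ccl22 at 1.69 CPM and low for Cxcl14 at 103 CPM, where its 3 fellows were at 109.8 to 110.1 CPM. Among the Post T libraries, library 4 was low for Ccl17 at 0.158 CPM.

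The effect of testosterone differed between the cohorts for 9 members, each by edgeR's test of the difference of log2 fold changes, Post T minus On T. Ligands of monocytes differed by 2.76 (Ccl2, adjusted p = 0.0211), 3.26 (Ccl7, adjusted p = 0.0234) and 2.65 (Ccl12, adjusted p = 0.0148), all from edgeR. Ligands of Ccr1 differed by 2.44 (Ccl3, edgeR adjusted p = 0.0499) and 1.71 (Ccl6, edgeR adjusted p = 0.0394), and Ccr1 itself by 1.85 (edgeR adjusted p = 0.0182). Cxcl10 differed by 1.46 (edgeR adjusted p = 0.0174), Cxcl16 by 0.92 (edgeR adjusted p = 0.0270) and Ackr1 by 3.12 (edgeR adjusted p = 0.0147).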

How the results depend on the processing

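No called value changed sign under any alternative. Of 127 alternative values of the 8 members called on testosterone 9 lost the call, of 315 of the 20 called post testosterone 40, and of 205 of the 9 called for the difference 38. Called members numbered 6 (limma on TPM) to 9 on testosterone, 15 (1 CPM filter, which tested 29 members) to 20 post testosterone and 7 to 12 for the difference. With 1 library left out they numbered 6 to 9, 14 to 19 and 4 to 10, and 0 to 0 between the controls, where DESeq2 called 1. With a replicate block they numbered 9, 20, 9 and 0, and the block changed no call other than those of Cxcl9, Ccr1, Ackr4, Ccl3 and Ccl4. Same-numbered libraries deviated together with correlations of -0.02 to 0.23, not all above 0.1, and 5 of 16 libraries correlated best with the library of their own number, so numbers were not taken as pairs.

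No value that changed sign was called. Given as the range with 1 library left out, the log2 values on testosterone were Ccl4 -0.10 to 0.31, Ccl6 -0.18 to 0.15, Ccl25 -0.10 to 0.076, Cxcl10 -0.047 to 0.17, Cxcl13 -0.26 to 0.34, Cx3cl1 -0.22 to 0.023, Ccr2 -0.24 to 0.12 and Xcr1 -0.45 to 0.15. Post testosterone they were Ccl7 -0.32 to 0.64, Cxcl5 -0.31 to 0.98 and Cx3cl1 -0.15 to 0.016, and for the difference Ccl21a -0.33 to 0.038. With neither Post T control library 1 nor On T library 2, Ccl4 was -0.099 and Cxcl10 -0.043 on testosterone and Ccl7 -0.20 post testosterone. Ccl25 on testosterone was 0.00040 with DESeq2 and 0.00023 with median-of-ratios size factors, and Ccl9 was 0.25 with limma on TPM. The cause was not tested. Few reads limit Cxcl2, Cxcl11, Ccr3, Ccr6 and Ccl24, and Cxcr1 on testosterone.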
